A study of Macaca mulatta with 4 samples.

Results

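The nuclei described here are mitotic nuclei, taken as dividing granule cell precursors, from the cerebellum of preterm rhesus macaque fetuses. A barcode was taken as one of them if it held 500 or more genes, 1 or more UMIs of at least 3 of the 7 genes ASPM, KIF14, CENPE, DLGAP5, GTSE1, CDCA2 and PRR11, and 0 UMIs of SLC1A3, PDGFRA, COL1A2 and PTPRC, which mark astroglia, oligodendrocyte precursors, fibroblasts and immune cells. There were 190 such nuclei among 32587 barcodes with 500 or more genes (0.583%). A UMI is a molecular tag that marks 1 captured RNA molecule. Single-nucleus RNA sequencing was done on 4 libraries, 1 per fetus. The 2 Control fetuses, a female and a male, had no intervention and were taken at 130 days of gestation. The 2 LPS fetuses had received 1 mg of lipopolysaccharide into the amniotic fluid 5 days earlier, a model of chorioamnionitis, and were taken at 133 days (male) and 131 days (female). The nuclei came from frozen cerebellar tissue. Each group therefore holds 1 fetus of each sex, and nuclei of 1 library are not replicates.

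Granule cells are small excitatory neurons of the inner layer of the cerebellar cortex. Their precursors divide in the external granule layer of the fetal cerebellum under the control of sonic hedgehog (SHH), a ligand that Purkinje cells secrete. SHH binds the receptor PTCH1, which frees SMO to act through the GLI transcription factors, and precursors that leave the cycle migrate inward and mature. Genes of the G2 and M phases, to which the genes of the rule belong, build the spindle, attach chromosomes to it and divide the cell.

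The Control female, Control male, LPS female and LPS male libraries gave 54, 73, 26 and 37 of the mitotic nuclei, respectively, and all values below are given in this order. Their median UMI number was 5381, 2420, 4922 and 3456, against 4504, 1878, 4060 and 2298 in the other barcodes of the same libraries. The female libraries were thus deeper than the male libraries in both groups. The mean mitochondrial share of UMIs in the other barcodes was 0.208, 0.0196, 0.182 and 0.0286%, higher in the female libraries. Where values below split between female and male libraries, sex cannot be told apart from such differences between the libraries. No barcode of the mitotic nuclei was shared between libraries. A doublet caller marked 2, 10, 0 and 3 of them. The Y-linked gene DDX3Y was at 0 CPM in the other barcodes of both female libraries and at 107 and 90.0 CPM in those of the Control male and LPS male libraries (CPM, the UMIs of a gene per total UMIs, scaled to a common total for every class). Also Y-linked, UTY had 6.20, 322, 5.44 and 299 CPM and KDM5D had 0.0883, 56.8, 0.163 and 46.4 CPM in the other barcodes, low but not 0 in the female libraries. One nucleus of the LPS female library held 2 or more of the oligodendrocyte genes MOG, MAG and MOBP.

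The 7 genes of the rule were each detected in 64.7 to 80.0% of the mitotic nuclei, and these values describe the choice and are not a test. ASPM, which holds the spindle poles together, had 1090.1, 985, 641 and 722 CPM in the mitotic nuclei of the 4 libraries and 35.3, 27.2, 38.3 and 24.9 CPM in all other barcodes. CENPE, a kinetochore motor, had 526, 1102, 618 and 862 CPM against 33.9, 46.1, 45.3 and 45.5 CPM. KIF14, a kinesin of the midbody, had 549, 795, 509.6 and 475 CPM against 24.2, 27.1, 27.6 and 16.2 CPM. The remaining 4 were DLGAP5 (295, 405, 239 and 267 CPM), GTSE1 (347, 546, 347 and 435 CPM), CDCA2 (381, 541, 448 and 388 CPM) and PRR11 (493, 599.9, 386 and 541 CPM). Both LPS libraries lay below both Control libraries for 3 of the 7 genes, ASPM, KIF14 and DLGAP5, as they did for 11.9% of all genes tested between the groups, and the groups overlapped for the other 4.

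The number of rule genes held describes the choice. Of the 190, 54 held all 7 genes, 43 held 6, 23 held 5, 34 held 4 and 36 held 3. Just outside it, 111 barcodes without the 4 absent genes held 2 of the 7. The 36 nuclei just inside numbered 11, 14, 6 and 5 per library, and the 111 just outside numbered 24, 45, 14 and 28. In RNA that lies free in the suspension, measured in barcodes with at most 100 UMIs, the 7 genes together had 190.2, 140.4, 188 and 127 CPM. Among oligodendrocytes, which do not divide and were taken as barcodes with 2 or more of MOG, MAG and MOBP, 1 of 31, 1 of 16, 2 of 20 and 0 of 83 barcodes held 3 or more of the genes. That was 3.23, 6.25, 10.0 and 0.0% of oligodendrocytes, where all barcodes gave 3.90, 2.53, 4.24 and 1.64%. The oligodendrocyte share was lower in the Control female and LPS male libraries and higher in the remaining libraries, on few barcodes. These few barcodes cannot decide how well 3 genes set mitotic nuclei apart. In nuclei with 3 or 4 of the 7 genes, 21 kinesin and spindle genes outside the rule summed to 2386, 4429, 2882.5 and 2534 CPM. In the other barcodes they summed to 349, 449, 404 and 297 CPM. The oligodendrocytes were deeper, with a median of 8294, 4318, 9477 and 4136 UMIs.

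**Figure D1:**
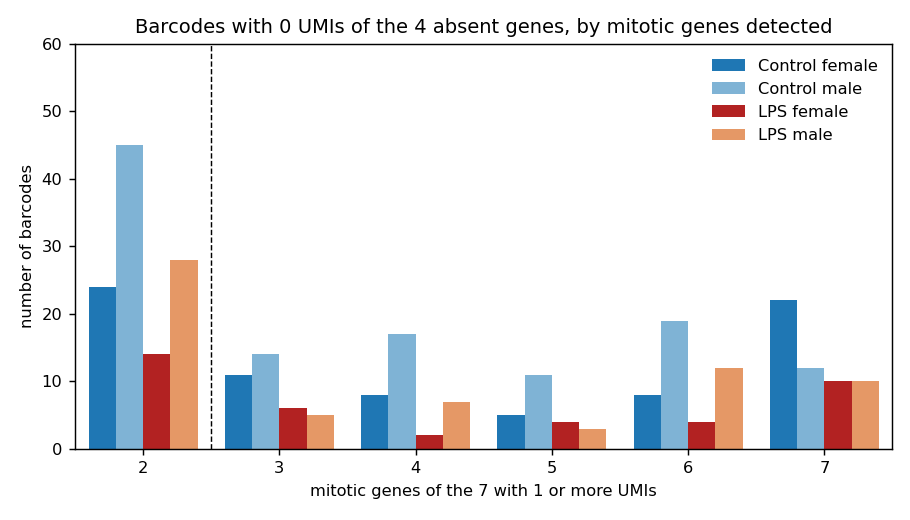
Number of barcodes with 0 UMIs of SLC1A3, PDGFRA, COL1A2 and PTPRC (y axis, count) by how many of the 7 mitotic genes they held (x axis) in each library. Barcodes right of the dashed line are the 190 mitotic nuclei, 54 of which held all 7 genes.

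The exclusion by the 4 absent genes removed most mitotic barcodes, and it did so unevenly over the libraries. In all, 1000 barcodes held 3 or more of the 7 genes (361, 218, 293 and 128), and 190 of them (19.0%) were kept. The mitotic barcodes removed are counted among all other barcodes, which are therefore not a class without mitosis. The 7 genes summed to 131 to 193 CPM in all other barcodes and to 50.8 to 68.4 CPM in those without the 4 absent genes. UMIs of PDGFRA, the receptor that marks oligodendrocyte precursors, were found in 72.3, 53.7, 86.0 and 53.1% of the mitotic barcodes, and also in 64.5, 33.8, 74.2 and 29.5% of the barcodes that were not mitotic. Free RNA held 508, 292, 1214 and 199 CPM of PDGFRA. The share of mitotic barcodes kept was 14.96, 33.5, 8.87 and 28.9%, lowest in the 2 female libraries, where free RNA held most PDGFRA. The part of free RNA in this loss was not tested. PDGFRA alone removed 115, 62, 134 and 36 mitotic barcodes, and SLC1A3 alone removed 45, 24, 14 and 23. COL1A2 or PTPRC alone removed 0.

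Other genes of oligodendrocyte precursors were looked at in the barcodes removed by PDGFRA alone. OLIG1, a transcription factor of that lineage, was at 0 CPM in all 4 libraries, and had 0, 0, 0 and 0.0457 CPM in the other barcodes. OLIG2 had 9.14, 3.47, 1.22 and 0 CPM against 3.99, 1.56, 3.16 and 1.92 CPM in the other barcodes. CSPG4 had 3.05, 20.8, 3.67 and 6.31 CPM against 1.96, 1.46, 1.63 and 2.20 CPM, above the other barcodes in all 4 libraries. The barcodes removed by PDGFRA alone held 656790, 288286, 817401 and 316833 UMIs, so the levels of OLIG2 and CSPG4 rest on few UMIs. OLIG1 was too low in the other barcodes for its 0 to tell the classes apart. GLI3 had 1279, 690.3, 1543 and 805 CPM in them and 1411, 912, 1498 and 1364 CPM in the mitotic nuclei kept. BOC had 813, 333, 525 and 379 CPM in them and 754, 556, 587 and 582 CPM in the nuclei kept. UNC5C had 5026, 2074, 4035 and 2127 CPM against 5376, 2229, 4138 and 2707 CPM. The barcodes removed by SLC1A3 alone held 641, 711, 1322 and 496 CPM of TNC, a matrix protein of astroglia, where the mitotic nuclei held 41.1, 43.9, 23.2 and 20.1 CPM. They also held 1199.5, 658, 921 and 1017 CPM of GLI3 and 758, 509, 419 and 765 CPM of BOC.

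The label of granule cell precursors was checked against markers of the lineage. ATOH1, the transcription factor that defines these precursors, had 0 UMIs in the 190 nuclei, which allows a share of up to 1.58% of nuclei with a UMI. It had 0.971, 0.251, 1.20 and 0.183 CPM in all other barcodes, so that this gene was at the edge of detection in these libraries as a whole. In the mitotic barcodes removed by PDGFRA alone, ATOH1 had 6.09, 0, 3.67 and 0 CPM. In those removed by SLC1A3 alone it had 3.77, 8.77, 16.7 and 0 CPM. Mitotic barcodes that the rule removed thus held UMIs of ATOH1, and the nuclei kept held none. Other genes of the granule lineage gave UMIs in the mitotic nuclei, and also in free RNA. ZIC1, a transcription factor of granule cells and their precursors, had 306, 273, 239 and 234 CPM in the mitotic nuclei and 595, 222, 648 and 447 CPM in free RNA. PAX6, another, had 276, 546, 201 and 508 CPM and 289, 429, 298 and 349 CPM. NEUROD1, which marks committed granule neurons, had 231, 112, 178 and 114 CPM and 516, 104, 567 and 288 CPM. Free RNA held more than the nuclei in 3 of 4 libraries for ZIC1 and NEUROD1 and in 2 for PAX6. Of the 16 identity genes, 4 (ZIC5, MEIS1, UNC5C and SFRP1) were above free RNA in all 4 libraries and 6 below in all 4. The list summed to 7765, 4272, 6455 and 4526 CPM in the nuclei and 4289.6, 3528, 4124 and 3938 CPM in free RNA, higher in the nuclei of every library, with UNC5C as its most abundant gene (2068, 1802, 1831 and 2031 CPM in free RNA). ATOH1, the defining marker, did not bear out the label in the nuclei kept, at a depth where few UMIs of it were seen. The nuclei are called mitotic nuclei below, after the rule.

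The genes of mitosis outside the rule were high together in these nuclei, as the choice of nuclei in G2 and M phase implies, and they are described without a test. Of 74 measured genes of 5 lists of the G2 and M phases, 72 were higher than in the other barcodes in all 4 libraries. For comparison, 16.6% of the 13405 genes fitted were higher in all 4. Among cyclins and kinases, CDK1, the kinase that drives entry into mitosis, had 164, 234, 147 and 134 CPM against 8.03, 8.69, 11.9 and 6.45 CPM in the other barcodes. CCNB1, its cyclin partner, had 213, 176, 247 and 207 CPM against 10.9, 9.74, 14.1 and 9.65 CPM. The phosphatase CDC25C, which activates CDK1, had 295, 390.2, 324 and 348 CPM, the kinase MELK had 407, 312, 324 and 287 CPM and the cyclin CCNF had 142, 234, 154 and 201 CPM. In the list of cyclins and kinases, 16 of 16 measured genes were higher in all 4 libraries, with a median log2 difference of 3.68. The median over all genes fitted was -0.21.

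The spindle and kinetochore genes had a similar pattern. TPX2, which nucleates spindle microtubules, had 455, 566, 448 and 368 CPM in the mitotic nuclei against 24.4, 28.9, 28.6 and 23.2 CPM, and the spindle motor KIF11 had 369.6, 599.9, 378 and 448 CPM against 21.4, 31.9, 28.3 and 17.4 CPM. TACC3, a spindle stabilizer, and GAS2L3 had 392, 663, 286 and 481 CPM and 526, 376, 448 and 334 CPM. The list of kinesins and spindle genes was higher in all 4 libraries for 21 of 21 genes (median log2 difference 3.90). CENPF, a kinetochore protein of G2 and M phase, had 907, 1058, 903 and 1270.1 CPM against 78.7, 63.0, 81.0 and 57.8 CPM. KNL1, the platform of the outer kinetochore, had 452, 766, 556 and 448 CPM, NDC80, which binds microtubules, had 399, 454, 324 and 301 CPM, and the checkpoint kinase BUB1 had 295, 322, 301 and 247 CPM. In that list 16 of 17 genes were higher in all 4 libraries (median 3.82).

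TOP2A, the topoisomerase that untangles sister chromatids, had 1034, 1648, 1297 and 1197 CPM in the mitotic nuclei and 51.8, 62.3, 71.0 and 43.0 CPM in the other barcodes. SMC4, a condensin subunit, had 903, 1785, 1027 and 1344 CPM against 78.3, 119, 86.3 and 70.5 CPM, and MKI67, the proliferation antigen that coats mitotic chromosomes, had 441, 434, 479 and 648 CPM against 31.0, 30.8, 36.1 and 27.8 CPM. The condensin subunit NCAPG had 351, 527, 247 and 408 CPM. In the list of condensin and chromatin genes 10 of 10 were higher in all 4 libraries (median 3.51), and in that of cytokinesis 9 of 10 (median 3.80). DIAPH3, a formin that builds actin filaments, had 2009, 995, 1583 and 969 CPM against 147, 84.4, 170.4 and 70.9 CPM, and CIT, the citron kinase of the midbody, had 668, 814, 471 and 562 CPM against 91.4, 129, 103 and 119.5 CPM. ECT2, which places the contractile ring, had 396, 302, 394 and 321 CPM, and ANLN, which anchors the ring, had 287, 322, 401 and 374 CPM.

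Genes of DNA replication and repair were also above the other barcodes, though by less. The 46 genes of S phase had a median log2 difference of 1.40, and 33 of them were higher in all 4 libraries. BRCA2, which acts in the repair of broken DNA, had 411, 409.7, 363 and 408 CPM in the mitotic nuclei, 492, 541, 315 and 267 CPM in S-phase nuclei and 36.6, 42.9, 40.7 and 30.3 CPM in the other barcodes. BRCA1 had 329, 444, 293 and 461 CPM, 606, 667, 484 and 718 CPM and 71.9, 94.6, 73.6 and 83.4 CPM in the same 3 classes. ATAD2, a chromatin ATPase, had 377, 385, 317 and 414 CPM and 499, 531, 405 and 256 CPM in the mitotic and S-phase nuclei, and CENPP had 373, 254, 371 and 160.4 CPM and 492, 333, 394 and 359 CPM. The S-phase nuclei are 175 barcodes (34, 84, 25 and 32) that held 3 or more of CLSPN, DTL, EXO1, HELLS, MCM10, RRM2 and WDR76, fewer than 3 of the mitotic genes and 0 UMIs of the 4 absent genes.

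The nuclei with fewer mitotic genes carried more of the S-phase list in 3 of 4 libraries. In the nuclei with 3 or 4 of the 7 genes (19, 31, 8 and 12 nuclei), the S-phase list summed to 6856, 6489.8, 3510.4 and 5622 CPM. In those with 5 to 7 (35, 42, 18 and 25 nuclei), it summed to 3390.5, 3999, 3937 and 3897 CPM. The LPS female library, with 8 nuclei in the first set, ran the other way on this list. The 7 genes that define the S-phase class summed to 1147, 1448, 485 and 1469 CPM in the first set and to 354, 542, 318 and 624 CPM in the second, higher in the first in all 4 libraries. The genes of the G2 and M phases summed to 9993, 14378, 11216 and 9136 CPM in the first set and to 23108, 29005, 22100.1 and 24992 CPM in the second, an order that the rule itself sets. The hedgehog pathway summed to 3335, 3656, 2626 and 3855 CPM in the first set and to 3594, 3133, 3694 and 3352 CPM in the second, with no common direction. No test was made on these sets.

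Outside the cell cycle lists, the mitotic nuclei differed from all other barcodes of their libraries in many genes. These tests, by edgeR's quasi-likelihood test on UMIs summed per library and class with the library as a term, hold for nuclei picked on 11 genes and are read with that choice in mind. The lists do not hold every gene of the cell cycle, so the choice can bear on genes outside them too. Whether the genes named as higher below vary with the cycle was not tested. Of 13405 genes tested, 651 (4.86%) were higher and 1502 (11.2%) lower at an adjusted p under 0.05 and a log2 fold change of at least 1, cell cycle genes included. The lower genes numbered 974 in DESeq2 and 929 without the library as a term, and the share of 11.2% used below moves with them. Of the lower genes, 137 had 0 UMIs in the mitotic nuclei, and for 77 of these the bound against 3 UMIs was under the threshold. The median log2 fold change of all tested genes was -0.21 with TMM scaling and 0.02 with library size alone, and 30.2% and 44.5% of the calls, respectively, were higher. PIF1, a DNA helicase, had 224, 137, 139 and 140.4 CPM in the mitotic nuclei against 7.53, 4.27, 7.75 and 4.34 CPM (log2 difference 4.55 ± 0.26, SE, edgeR adjusted p = 5.88e-64). APOLD1, known from endothelial cells, had 1456, 1746, 1204 and 1691 CPM against 67.2, 78.7, 79.2 and 57.2 CPM (log2 fold change 4.20 ± 0.15, edgeR adjusted p = 5.79e-165). The groups of values did not overlap for either gene. 

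MXD3, a MAX-binding repressor of proliferating granule precursors, had 146, 195, 216 and 294 CPM against 9.22, 7.63, 14.0 and 6.59 CPM (log2 difference 4.28 ± 0.23). IQGAP3, a cytoskeletal scaffold, had 142, 224, 108 and 201 CPM against 7.13, 10.1, 7.20 and 5.49 CPM (4.26 ± 0.25). PIMREG, a protein that peaks in mitosis, and ARHGEF39, a guanine nucleotide exchange factor, had 29.9, 48.8, 54.0 and 73.5 CPM and 37.3, 53.6, 30.9 and 93.6 CPM, and neither passed 3.4 CPM in the other barcodes of any library. FAM72A, 1 of a gene family whose copies can share reads in some primates, had 93.3, 19.5, 116 and 46.8 CPM against 3.80, 2.36, 4.88 and 2.01 CPM. The 3 remaining genes of the 10 with the highest fold change carry no symbol, among them ENSMMUG00000030321 (7.47, 24.4, 38.6 and 20.1 CPM, from 2 to 5 UMIs per library). 

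Of the 10 genes with the lowest fold change, 9 had no UMI in the mitotic nuclei, so their folds are bounds against 3 UMIs over all 190 nuclei. All 10 met the filter on low counts through the other barcodes, where they are high, and are read with that in mind. CA8, a gene of Purkinje cells, was at 42.3, 33.8, 42.6 and 14.5 CPM in the other barcodes and at least 8.97-fold lower in the mitotic nuclei. DAB2, an endocytic adaptor, had 29.0, 39.4, 42.7 and 13.0 CPM there (at least 7.86-fold lower), FGF5, a growth factor, 33.2, 19.5, 40.4 and 19.4 CPM (at least 7.57-fold) and LGR6, an R-spondin receptor, 22.1, 29.9, 17.9 and 33.1 CPM (at least 6.10-fold). ST8SIA2, which adds polysialic acid to NCAM, PI15, CNTNAP4 and KNDC1 were at least 5.68, 5.59, 5.23 and 4.62-fold lower. NID1, a basement membrane protein, had 3.73, 0, 0 and 0 CPM in the mitotic nuclei against 43.8, 61.7, 73.2 and 35.3 CPM. It rested on 1 UMI in the mitotic nuclei and was 39.8-fold lower over the summed libraries (95% exact interval 7.14 to 1572, counting error only). The other barcodes include the cell types that the 4 absent genes mark, and the mitotic barcodes that the rule removed.

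Genes of the hedgehog pathway were examined from ligand to transcription factor. SHH had 0 UMIs in the mitotic nuclei of all 4 libraries and 0.419, 1.05, 0.358 and 0.320 CPM in the other barcodes, so both classes were at or under the floor. Of 17 measured genes of the pathway, 15 were tested, and 4 were higher and 1 lower than in the other barcodes, where 4.86% and 11.2% of all tested genes were. The median log2 fold change of the 15 was 0.57, against -0.21 over all tested genes. Summed over the 17 genes, the pathway had 3521, 3341, 3405 and 3509.6 CPM in the mitotic nuclei, 1689, 1980.5, 1790.4 and 1729.5 CPM in the other barcodes and 1315, 1886, 1218 and 1564 CPM in free RNA.

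Among the receptors, SMO, the signal transducer that PTCH1 holds inactive, had 250.1, 244, 185 and 194 CPM in the mitotic nuclei against 76.9, 94.1, 74.8 and 70.6 CPM (log2 fold change 1.25 ± 0.17, edgeR adjusted p = 3.12e-12). Without PDGFRA in the exclusion the fold change of SMO was 0.97, short of the threshold. BOC, a co-receptor for SHH, had 754, 556, 587 and 582 CPM against 253, 199, 227 and 199.7 CPM (1.26 ± 0.14, edgeR adjusted p = 7.33e-18). For SMO and BOC every library of mitotic nuclei lay above every library of other barcodes. CDON, the other co-receptor of that family, went the other way, with 74.7, 68.3, 61.8 and 100.3 CPM against 123, 129, 113 and 153 CPM (-1.003 ± 0.21, edgeR adjusted p = 2.07e-05). This fold was just past the threshold of 1 and fell short of it under 5 alternatives, among them DESeq2 and library size scaling (-0.76). GAS1, the third co-receptor, had 0 UMIs. PTCH1, receptor and target of the pathway, had 220.3, 258, 169.9 and 267 CPM against 149, 252, 136 and 224 CPM (0.06 ± 0.16, edgeR adjusted p = 0.847) and 122, 245, 128 and 189 CPM in free RNA.

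Both GLI factors that transduce the signal first were higher. GLI2, the main activator, had 183, 493, 139 and 374 CPM against 48.8, 142, 49.0 and 77.9 CPM (log2 fold change 1.67 ± 0.16, edgeR adjusted p = 2.47e-23), and its level was higher in the male than in the female libraries of both classes. GLI3, which acts mostly as a repressor, had 1411, 912, 1498 and 1364 CPM against 455, 384, 618 and 298 CPM (1.36 ± 0.14, edgeR adjusted p = 1.95e-20). GLI1, a target of the pathway, had 0, 2, 0 and 1 UMIs in the mitotic nuclei, or 0, 9.75, 0 and 6.68 CPM. Against the other barcodes without the 4 absent genes, GLI2, GLI3, SMO and BOC were higher by log2 values of 2.10, 1.30, 1.48 and 1.58. In free RNA, GLI2 had 32.8, 99.6, 28.1 and 41.6 CPM, GLI3 315, 442, 319 and 326 CPM, SMO 97.8, 108, 86.6 and 76.5 CPM and BOC 152, 168, 140.3 and 163 CPM, each below the mitotic nuclei of the same library.

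The remaining regulators did not pass the threshold. SUFU, which holds GLI factors in the cytoplasm, had 123, 224, 208 and 180.5 CPM against 178, 281, 163 and 311 CPM, and GPR161, a ciliary receptor that restrains the pathway, had 56.0, 43.9, 77.2 and 46.8 CPM against 26.2, 29.0, 30.5 and 18.9 CPM. The protein kinase A subunit PRKACB, which phosphorylates GLI factors, had 101, 92.7, 92.7 and 40.1 CPM against 144, 107, 141 and 126 CPM, and PRKACA had 26.1, 34.1, 7.72 and 33.4 CPM against 34.1, 57.1, 35.8 and 48.6 CPM. HHIP, a decoy for the ligand, had 14.9, 19.5, 15.4 and 0 CPM. The ciliary genes EVC and EVC2 had 37.3, 53.6, 15.4 and 13.4 CPM and 26.1, 9.75, 7.72 and 13.4 CPM.

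**Figure D2:**
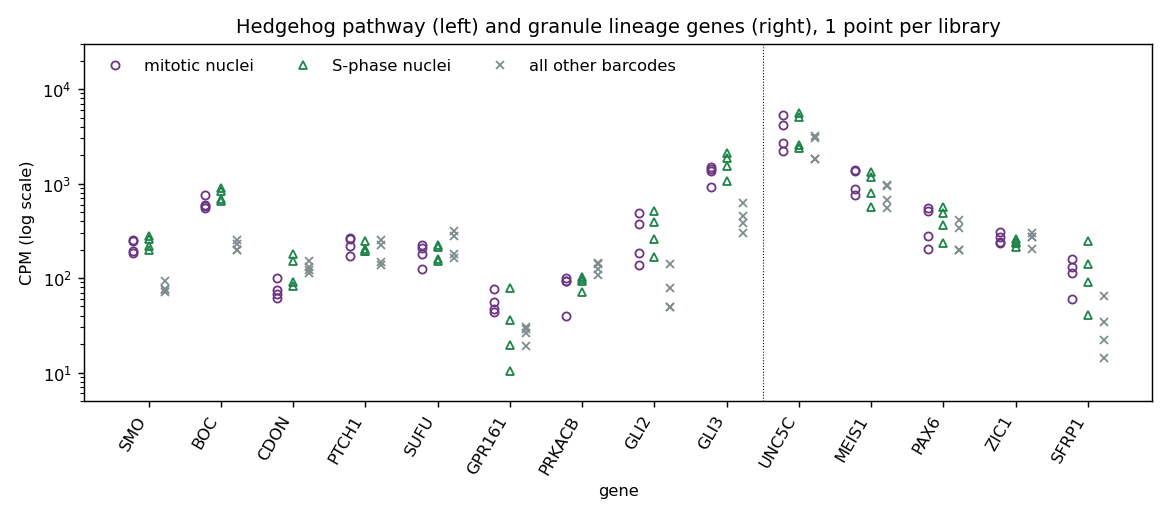
Level in CPM (y axis, log scale) of 9 hedgehog pathway genes and 5 genes of granule lineage identity (x axis) in mitotic nuclei, S-phase nuclei and all other barcodes, with 1 point per library. SMO, BOC, GLI2, GLI3 and SFRP1 passed the test against the other barcodes as higher, and CDON passed as lower.

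Of 16 measured genes of granule precursor identity, 15 were tested, 1 was higher, 1 was lower and 13 did not pass the test, where 16.1% of all tested genes passed in either direction. Their median log2 fold change was -0.01. SFRP1, a secreted antagonist of WNT, had 161, 112, 131 and 60.2 CPM against 34.0, 22.05, 64.0 and 14.3 CPM (log2 fold change 1.72 ± 0.23, edgeR adjusted p = 1.94e-12), a call that was lost without the library as a term (edgeR adjusted p = 0.0509). HES1, a NOTCH target, had 7.47, 0, 7.72 and 0 CPM against 18.7, 24.9, 26.4 and 21.1 CPM (edgeR adjusted p = 3.92e-04). HES1 rested on 3 UMIs in the mitotic nuclei, 5.56-fold lower over the summed libraries (95% exact interval 1.90 to 27.0, counting error only), and its call was lost against the other barcodes without the 4 absent genes (edgeR adjusted p = 0.319). The netrin receptor UNC5C had 5376, 2229, 4138 and 2707 CPM against 2998, 1818, 3189.7 and 1824 CPM, and the homeobox gene MEIS1 had 1381, 868, 1343 and 755 CPM against 971, 672, 941 and 551 CPM. Both were above the other barcodes in all 4 libraries, with log2 fold changes of 0.29 ± 0.14 and 0.23 ± 0.14 that did not pass.

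PAX6 had 198, 408, 199 and 338 CPM and ZIC1 271, 205, 273 and 298 CPM in the other barcodes, with log2 fold changes of 0.18 ± 0.15 and -0.19 ± 0.15. Of the other ZIC factors of the dorsal hindbrain, ZIC4 had 119, 127, 208 and 160.4 CPM, ZIC5 59.7, 82.9, 46.3 and 66.8 CPM and ZIC2 3.73, 4.88, 0 and 0 CPM in the mitotic nuclei. CXCR4, the receptor that keeps precursors in the external layer, had 37.3, 0, 69.5 and 6.68 CPM against 17.9, 2.41, 25.9 and 5.12 CPM, higher in the female than in the male libraries of both classes. The D-type cyclin CCND1, a hedgehog target, had 3.73, 4.88, 15.4 and 0 CPM, BARHL2 had 11.2, 4.88, 7.72 and 13.4 CPM, and ID1 and ID3 had 3.73, 0, 15.4 and 0 CPM and 3.73, 0, 0 and 0 CPM. ID3 stood at 1 UMI over the 190 nuclei, so that no difference could be seen at this depth.

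Of 16 measured genes of commitment and migration, 15 were tested, and 0 were higher and 3 lower, against 4.86% and 11.2% of all tested genes. In all 4 libraries 5 of them were higher and 6 lower, and the median log2 fold change was -0.05. PLXNA2, a semaphorin receptor, had 26.1, 92.7, 84.9 and 80.2 CPM against 222, 231, 182 and 274 CPM (log2 fold change -2.02 ± 0.21, edgeR adjusted p = 1.03e-20). DCX, the microtubule protein of migrating neurons, had 37.3, 14.6, 77.2 and 66.8 CPM against 120.3, 94.6, 130.4 and 93.9 CPM (-1.53 ± 0.25, edgeR adjusted p = 1.21e-08), and NEUROD2 was the third. NFIA and NFIB, transcription factors of granule neuron development, had 4682, 3482, 4918 and 3957 CPM and 4047, 2087, 4308 and 1999 CPM and did not pass the fold threshold. DCC, a netrin receptor, had 1781, 1039, 1969 and 1658 CPM against 1086, 741, 1207 and 552 CPM, and STMN2 had 638, 361, 517 and 562 CPM. HES6, which favors neuronal differentiation, had 623, 380.4, 641 and 388 CPM against 261, 160.3, 378 and 132 CPM (0.96 ± 0.14), just short of the threshold of 1.

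The mature granule genes were lower in these nuclei than in the other barcodes as a group. Of 15 measured and tested genes, 12 were lower and 0 higher, and 12 were lower in all 4 libraries, as were 22.2% of all genes fitted, with a median log2 fold change of -2.33, or -2.24 with GRIN2C, at 0 UMIs, taken at its bound. NRXN3, a presynaptic adhesion molecule, had 97.1, 434, 77.2 and 655 CPM against 2505, 2504, 2624 and 2613 CPM (log2 fold change -3.48 ± 0.17, edgeR adjusted p = 3.87e-90). Its level in the mitotic nuclei of the male libraries was above that of the female libraries in both groups. KCNIP4, a potassium channel subunit, had 777, 849, 224 and 2453 CPM against 5084, 1890.2, 3259 and 5767 CPM (-2.33 ± 0.16, edgeR adjusted p = 7.09e-48), with the LPS male library highest and the LPS female library lowest. CLSTN2, a synaptic calsyntenin, had 78.4, 195, 169.9 and 287 CPM against 791, 734, 839.8 and 468 CPM (-2.24 ± 0.17). RBFOX3, which encodes the neuronal marker NeuN, had 1105, 3472, 1259 and 2206 CPM against 1288, 3462, 1129 and 3164 CPM (-0.38 ± 0.14) and did not pass. Free RNA held 1436, 2451, 1281 and 2746 CPM of NRXN3, more than the mitotic nuclei did, and the part of free RNA in their level was not tested.

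Of 12 measured genes that act when cells leave the cycle, 11 were tested, 4 were higher, as were 4.86% of all tested genes, and 0 were lower, with a median log2 fold change of 0.45. RBL1, the p107 pocket protein, had 183, 249, 154 and 241 CPM against 58.3, 119, 64.6 and 86.8 CPM (log2 fold change 1.13 ± 0.17, edgeR adjusted p = 9.40e-10). CDKN1B, the cyclin-dependent kinase inhibitor p27, had 63.5, 34.1, 61.8 and 46.8 CPM against 18.3, 10.4, 21.7 and 11.9 CPM (1.51 ± 0.33, edgeR adjusted p = 4.96e-05), from 39 UMIs. CDKN2C, the inhibitor p18, had 18.7, 39.0, 54.0 and 20.1 CPM against 2.54, 1.41, 4.30 and 1.23 CPM (3.54 ± 0.50, edgeR adjusted p = 2.81e-11), from 23 UMIs. FZR1, an activator of the anaphase-promoting complex, was the fourth (37.3, 58.5, 23.2 and 53.5 CPM). RB1 and RBL2 had 205, 224, 193 and 167 CPM and 134, 146, 77.2 and 93.6 CPM and did not pass. RBL1 and CDKN2C are themselves known to follow the cell cycle.

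Markers of other cell types were compared with the other barcodes, and the rule itself asks for 0 UMIs of 4 such genes. Of all tested genes 11.2% were lower and 4.86% higher. Of 9 measured astroglial genes, 6 were lower and 0 higher, and the list summed to 122 to 198 CPM against 968 to 1222 CPM in the other barcodes. TNC had 41.1, 43.9, 23.2 and 20.1 CPM, PTPRZ1 59.7, 39.0, 23.2 and 73.5 CPM and SLC1A2 26.1, 19.5, 15.4 and 13.4 CPM. The GABAergic interneuron list summed to 7.72 to 73.2 CPM against 155 to 248 CPM (4 of 8 tested genes lower), with PAX2 at 11.2, 29.3, 0 and 0 CPM and GAD1 at 0, 9.75, 0 and 20.1 CPM. The unipolar brush cell list summed to 30.9 to 287 CPM against 277 to 602 CPM, with 2 of 4 tested genes lower. LMX1A, at 0 UMIs, met the filter through the other barcodes alone, and its bound of at least 1.40-fold lower is short of the threshold, so it is not counted. OTX2 was higher (18.7, 24.4, 30.9 and 66.8 CPM against 11.01, 12.4, 11.2 and 12.3 CPM). The Purkinje list summed to 112 to 201 CPM against 263 to 402 CPM, with CA8 lower as above, and PPP1R17 was higher (41.1, 43.9, 54.0 and 114 CPM against 17.0, 14.7, 20.3 and 17.7 CPM) while ITPR1 was lower (37.3, 73.2, 38.6 and 66.8 CPM against 235, 326, 242 and 181 CPM).

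Microglial genes summed to 0 to 14.6 CPM, fibroblast genes to 0 to 11.2 CPM and endothelial genes to 6.68 to 26.1 CPM. In the other barcodes they summed to 19.4 to 25.4, 19.9 to 73.1 and 39.1 to 94.6 CPM. CSF1R, CX3CR1 and AIF1 of microglia, DCN and LUM of fibroblasts and CLDN5 of endothelium were at 0 in all 4 libraries. For CSF1R, AIF1, LUM and CLDN5 the other barcodes were also at or under the floor, so these zeros show no difference. CX3CR1 was at least 1.04-fold and DCN at least 4.70-fold lower. The oligodendrocyte list summed to 414, 337, 1475 and 455 CPM against 343, 253, 363 and 760.2 CPM in the other barcodes. It was above the other barcodes in all libraries but the LPS male, and highest in the LPS female library, where the nucleus with 2 or more of MOG, MAG and MOBP lies. MOBP passed as higher, on values of the LPS female library, and BCAS1 as lower. MBP, a myelin protein, had 369.6, 337, 981 and 414 CPM against 186, 167, 196 and 519.6 CPM, and MOBP had 0, 0, 169.9 and 6.68 CPM, again highest there. TTR, the choroid plexus transthyretin, had 7.47, 0, 239 and 0 CPM in the mitotic nuclei, 10.1, 1.31, 305 and 1.14 CPM in the other barcodes and 134, 0, 2829.9 and 5.94 CPM in free RNA, so it was high in the LPS female library in every class. Of 18 innate and interferon genes, 11 were tested, 1 was lower, where 11.2% of all tested genes were, 0 were higher and 8 were at 0 UMIs. These 8 were at or under the floor in the other barcodes too, so their zeros show no difference. NFKB1 had 48.5, 58.5, 92.7 and 66.8 CPM, STAT3, the lower gene, 44.8, 73.2, 69.5 and 53.5 CPM, IL6ST 26.1, 19.5, 46.3 and 20.1 CPM and RELA 11.2, 14.6, 15.4 and 40.1 CPM.

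**Figure D3:**
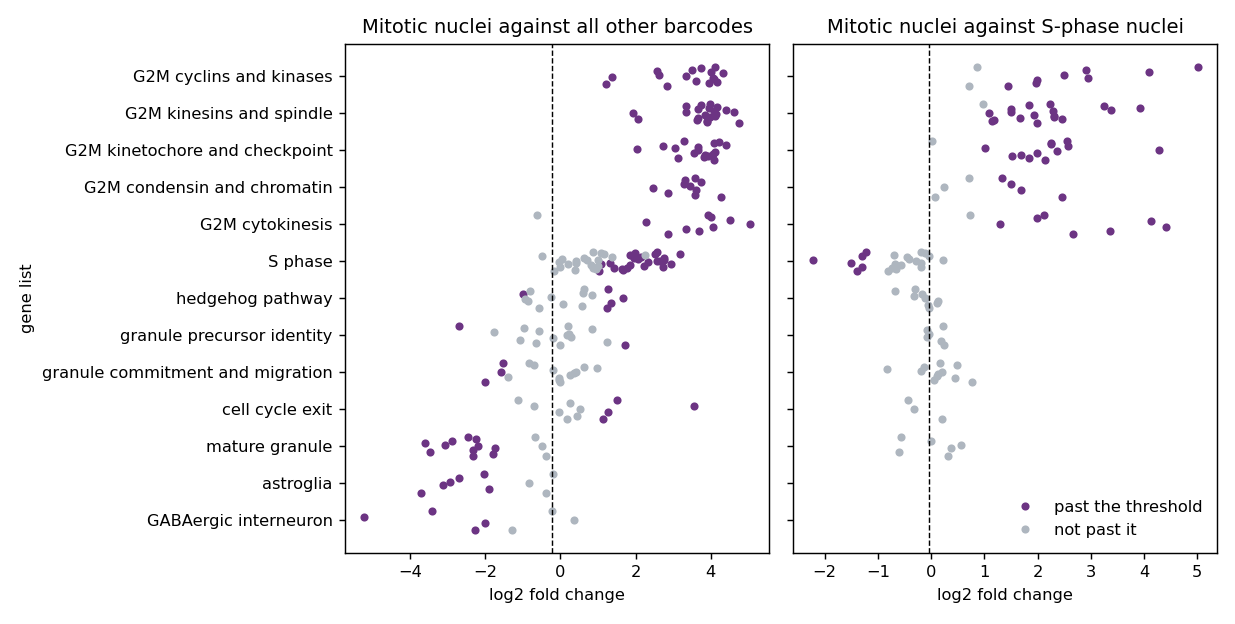
Log2 fold change (x axis) of each tested gene of 13 lists (y axis) in mitotic nuclei against all other barcodes (left) and against S-phase nuclei (right), without genes at 0 UMIs in the mitotic nuclei. Purple points are past an adjusted p under 0.05 and a log2 fold change of at least 1, the dashed line is the median of all tested genes, and the G2 and M phase lists, which the rule bears on, are a description. Of the hedgehog and mature granule genes, 5 of 15 and 12 of 15 passed against the other barcodes and 0 of 9 and 0 of 6 against S-phase nuclei, a difference between the comparisons that was not tested.

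Against S-phase nuclei, the nearest cells in the cycle, the mitotic nuclei differed in genes of the cycle lists and in others outside them. The genes outside the lists may also belong to the cycle, which was not tested. Of 3586 genes tested by edgeR without the genes of both rules, 195 (5.44%) passed, 131 (3.65%) higher and 64 (1.78%) lower. The lower genes numbered 22 in DESeq2 and 20 without the library as a term. Of the higher genes 48 belong to the G2 and M phase lists. The S phase list, also set by the choice of classes, had 6 lower and 0 higher of 21 tested genes. Outside those lists, PIF1 had 224, 137, 139 and 140.4 CPM against 7.12, 4.83, 0 and 0 CPM, from 127 UMIs against 2, so that it met the filter on low counts through the mitotic nuclei. That is a ratio of 45.1 over the summed libraries (95% exact interval 12.2 to 376, counting error only). APOLD1 had 1456, 1746, 1204 and 1691 CPM against 92.6, 155, 225 and 164 CPM (log2 fold change 3.34 ± 0.17, edgeR adjusted p = 1.95e-25). KPNA2, a nuclear import receptor, had 179, 224, 286 and 160.4 CPM against 28.5, 14.5, 0 and 20.5 CPM, from 155 UMIs against 9 (ratio 12.2, 95% exact interval 6.27 to 27.2). MXD3 had 14.2, 14.5, 22.5 and 10.3 CPM in S phase, from 151 UMIs against 8 (ratio 13.4, interval 6.63 to 31.6). LMO7, a cytoskeletal protein, had 235, 239, 263 and 221 CPM against 14.2, 38.6, 56.3 and 51.3 CPM (log2 fold change 2.65 ± 0.30). KPNA2, MXD3 and LMO7 also met the filter through the mitotic nuclei.

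The 5 genes with the lowest fold change against S-phase nuclei follow, and the S-phase class was itself chosen on genes such as RRM2, which makes nucleotides for replication. All 5 met the filter on low counts through the S-phase nuclei, where they are high, so their fold changes and p-values are read with that in mind. E2F1, the transcription factor that starts S phase, had 26.1, 9.75, 7.72 and 13.4 CPM against 78.4, 96.6, 78.8 and 92.3 CPM (log2 fold change -2.42 ± 0.47, edgeR adjusted p = 8.56e-05). SFXN1, which carries serine into mitochondria, had 26.1, 19.5, 23.2 and 26.7 CPM against 121, 130.4, 90.1 and 113 CPM (-2.25 ± 0.39). DUT, the dUTPase, had 29.9, 19.5, 30.9 and 6.68 CPM against 135, 82.1, 90.1 and 71.8 CPM, and MTHFD1, of folate metabolism, had 14.9, 39.0, 7.72 and 46.8 CPM against 114, 91.8, 101 and 144 CPM. TNFSF4, the OX40 ligand, had 59.7, 9.75, 30.9 and 80.2 CPM against 178, 111, 113 and 277 CPM (-1.92 ± 0.32, edgeR adjusted p = 2.93e-06), and its call was lost without the library as a term (edgeR adjusted p = 0.0782). All 4 libraries had the same direction for each of these genes, which the choice of genes required.

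The granule and hedgehog genes held no call against S-phase nuclei. Of the hedgehog list 9 genes were tested and 0 passed, with a median log2 fold change of -0.12 against -0.03 over all genes, and 8 of the 17 measured genes did not pass the filter on low counts. GLI3 had 1859, 1058, 2118 and 1528 CPM in S-phase nuclei and was lower in the mitotic nuclei of all 4 libraries, without passing the test (log2 fold change -0.31 ± 0.12, edgeR adjusted p = 0.0626). BOC had 905, 691, 653 and 831 CPM in S phase (-0.30 ± 0.14), SMO 199, 217, 282 and 256 CPM and GLI2 256, 512, 169 and 389.7 CPM. Of the identity list 6 were tested, of commitment and migration 11 and of mature genes 6, with 0 past the threshold in each. HES6 was nearest to it, with 623, 380.4, 641 and 388 CPM in the mitotic and 1147, 604, 1205 and 708 CPM in the S-phase nuclei (-0.82 ± 0.14, edgeR adjusted p = 6.49e-06), short of a log2 fold change of 1. A missed threshold does not show that the classes are alike.

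The share of mitotic nuclei was compared between Control and LPS fetuses, to ask whether it differs 5 days after LPS. It was 0.583% of barcodes (95% exact interval 0.439 to 0.761) in the Control female library, 0.847% (0.664 to 1.06) in the Control male, 0.377% (0.246 to 0.551) in the LPS female and 0.474% (0.334 to 0.653) in the LPS male library. Intervals are Clopper-Pearson intervals and cover counting error only. Both LPS libraries lay below both Control libraries, with means of 0.425% and 0.715%. The difference of -0.290 percentage points had a two-sided exact permutation p = 0.33, the smallest value that 2 against 2 fetuses allow. It was -0.207 points within female and -0.373 points within male fetuses. A share says nothing of the absolute number of dividing cells, since it also moves with the other nuclei recovered. The LPS fetuses were taken at 131 and 133 days and both Control fetuses at 130 days, with no intervention. In the shares and in the gene tests, LPS cannot be told apart from gestational age or from the injection itself.

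Whether both LPS libraries lay below both Control libraries depended on how barcodes were chosen. The order did not hold once PDGFRA was left out of the exclusion. The nuclei then numbered 169, 135, 160 and 73, or 1.83, 1.57, 2.32 and 0.935% of barcodes. The groups overlapped, with a difference of -0.0697 points (exact permutation p = 1) that was 0.491 points within female and -0.631 points within male fetuses. The share of barcodes with 3 or more of the 7 genes and no exclusion was 3.90, 2.53, 4.24 and 1.64%. As a share of barcodes without the 4 absent genes the nuclei made up 3.13, 1.74, 2.62 and 0.977%, again with overlapping groups. With every barcode thinned to 1000 UMIs the shares were 0.981, 0.944, 0.905 and 0.665%, and with 2000 UMIs 0.980, 1.47, 0.861 and 0.946%. The thinning to 1000 UMIs kept 8867, 7841, 6740 and 6017 barcodes and that to 2000 kept 8573, 3876, 6389 and 4545, in which the unthinned shares were 0.586, 0.918, 0.371 and 0.615% and 0.537, 1.32, 0.376 and 0.792%. The order held in both thinned sets, and the groups overlapped in both unthinned ones. Thinning also removed UMIs of the 4 absent genes and so let in barcodes that the rule excludes. In the same barcodes, 84, 57, 55 and 43 nuclei were counted after thinning to 2000 UMIs and 46, 51, 24 and 36 before it. The thinned sets are therefore not the same nuclei at equal depth. The order also held without marked doublets (0.600, 0.881, 0.401 and 0.473%), with exclusion at 2 or more UMIs (1.62, 1.44, 1.33 and 0.897%), with at most 5% mitochondrial UMIs, and with 2 or more (0.843, 1.37, 0.579 and 0.833%) or 4 or more of the 7 genes (0.465, 0.684, 0.290 and 0.410%). The groups overlapped among barcodes with 1000 or more genes (0.551, 1.15, 0.384 and 0.671%, difference -0.321 points, exact permutation p = 0.667). PDGFRA in free RNA was highest in the LPS female library, where the smallest share of mitotic barcodes was kept.

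**Figure D4:**
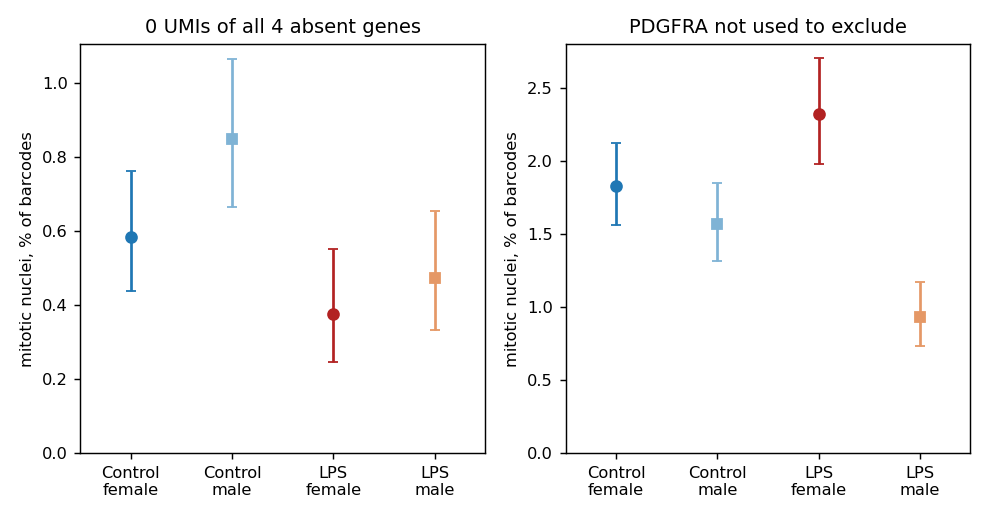
Mitotic nuclei as a percentage of barcodes with 500 or more genes (y axis, from 0, with a different range in each panel) in each library, with 95% Clopper-Pearson intervals. With all 4 absent genes (left) both LPS points lie below both Control points, and without PDGFRA in the exclusion (right) the LPS female point, 2.32%, is the highest.

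Mitotic nuclei were also set against S-phase nuclei of the same library. The ratio was 1.59, 0.869, 1.04 and 1.16, with the Control female library highest and the Control male lowest, so that the groups overlapped. The difference of the means, 1.10 in LPS and 1.23 in Control, was -0.131 (exact permutation p = 1). It was -0.548 within female and 0.287 within male fetuses. Without the Control female library it was 0.229, so that this library set its sign. With every barcode thinned to 2000 UMIs the ratio was 1.38, 1.36, 1.17 and 1.30, and the groups no longer overlapped (difference -0.130, exact permutation p = 0.33). With 1000 UMIs it was 7.91, 1.48, 3.81 and 2.11, again with overlap, and the difference was -1.74 (p = 1 by exact permutation). The value of 7.91 rests on 11 S-phase barcodes, and without the Control female library the difference was 1.48.

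Within the mitotic nuclei, no gene passed the test between LPS and Control. Of 4302 genes tested by edgeR with the fetus as the replicate, 0 (0.0%) were higher and 0 lower at an adjusted p under 0.1 and a log2 fold change over 0.25. At an unadjusted p under 0.05 there were 30 genes by edgeR and 13 by DESeq2, which called 0 as well. Leaving out 1 library at a time, 1 to 6 genes passed as higher and 1 to 4 as lower, among them ELMO1 and RNF220 without either the Control female or the LPS male library, and the Y-linked NLGN4Y and USP9Y without the Control male or the LPS male library, which left a group with 1 sex. Both LPS libraries lay above both Control libraries for 438 genes (10.2%) and below for 511 (11.9%). The libraries held 129518 to 267859 UMIs of these nuclei.

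The 5 genes above and 5 below, those of smallest unadjusted p among genes whose groups did not overlap, are given as values. ELMO1, a regulator of RAC activation, had 149, 82.9, 649 and 287 CPM (2.01 ± 0.55 on the log2 scale, edgeR unadjusted p = 0.00748, adjusted p = 0.9998). Without the 1 nucleus with oligodendrocyte genes the fold change of ELMO1 was 0.97, and that of MDGA2, a synaptic adhesion molecule with 112, 82.9, 371 and 214 CPM, went from 1.59 to 0.62. SUGCT, a mitochondrial CoA transferase, had 93.3, 53.6, 270.2 and 174 CPM (1.58 ± 0.48) and stayed at 1.62 without that nucleus. MAGI2, a synaptic scaffold, had 287, 199.96, 718 and 495 CPM and PCDH9, a protocadherin, 343, 293, 633 and 729 CPM, and without that nucleus their log2 fold changes went from 1.33 to 0.50 and from 1.11 to 0.42. Among genes lower in LPS, the protocadherin PCDH15 had 220.3, 190.2, 84.9 and 26.7 CPM (-1.87 ± 0.56), KLHL24, an adaptor of ubiquitin ligases, 153, 171, 77.2 and 60.2 CPM, the potassium channel gene KCNG2 101, 151, 38.6 and 53.5 CPM and BICDL1, a dynein adaptor, 134, 146, 61.8 and 60.2 CPM. The fifth, ENSMMUG00000008667, carries no symbol. The adjusted p of all 10 genes was 0.9998.

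**Figure D5:**
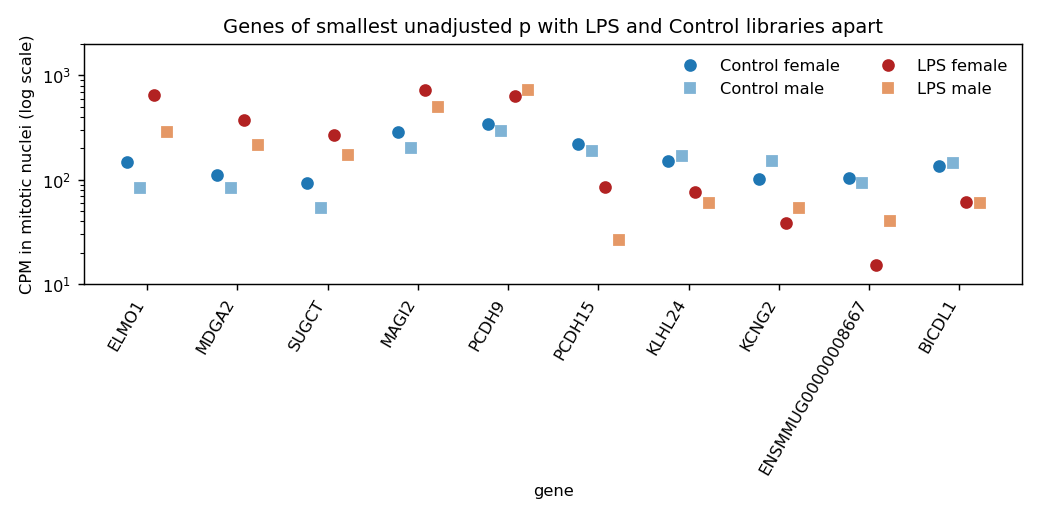
CPM in mitotic nuclei (y axis, log scale) of the 10 named genes (x axis) in each library. The 2 LPS points lie above the 2 Control points for the 5 genes on the left and below them for the 5 on the right, which is how the genes were chosen, and the adjusted p of each was 0.9998.

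The hedgehog genes gave no common direction between LPS and Control nuclei. Of 9 tested, 0 lay above and 2 below in both LPS libraries, with a median log2 fold change of -0.10 against 0.00 over all genes, of which 10.2% lay above and 11.9% below. The 2 were SMO and PRKACB. SMO, at -0.36 ± 0.36, and GLI2, at -0.35 ± 0.60, had errors about as large as the difference or larger, as had PTCH1 (-0.10 ± 0.39) and GLI3 (0.32 ± 0.42). Of 64 tested genes of the G2 and M phases 6 lay above and 10 below in both LPS libraries with a median of -0.09. The mature granule list had 1 of 7 tested genes above and 0 below, with a median of 0.52. Its sum in the 4 libraries, 2404, 5418, 2015 and 6371 CPM, split between female and male libraries rather than by group. MYO19, of the cytokinesis list, had 0, 39.9, 0 and 32.2 CPM in the other barcodes and 0, 50.4, 0 and 38.6 CPM in free RNA. It was thus missing from both in the female libraries, and the cause was not tested. Sex therefore cannot be told apart from other differences between the libraries. The granule precursor identity list had 1 above and 1 below of 7, and the innate and interferon list 1 above and 0 below of 2.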

How the data were processed

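Nuclei from frozen fetal cerebellum were sequenced with the 10x 3' v3.1 kit, and the authors aligned the reads to Mmul_8.0.1 with introns included. The deposited count matrices hold raw UMI counts per gene and barcode, unfiltered. The submitters' processing notes name Cell Ranger 4. The members and gene lists were chosen with earlier results of these data known. Library totals were 34282015 to 61665690 UMIs, and the mitotic nuclei held 129518 to 267859 UMIs per library, so intervals cover counting error only.

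Counts were summed per library and class and tested with edgeR 4.0.16 in R 4.3.3 (filterByExpr, TMM, quasi-likelihood, Benjamini-Hochberg adjustment), with the library as a term between classes and with the fetus as the replicate between LPS and Control. DESeq2 1.42.0 was the alternative. Shares were compared by two-sided exact permutation. Scripts were tested on simulated data. Doublets were marked with Scrublet and kept. Its automatic threshold marked 0.128% of the LPS male library, so 0.1719, the middle value among the remaining libraries, replaced it. Of 9483 genes listed by identifier alone, 883 took a symbol from a name table.

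Named genes were all genes of the mitotic rule and of the hedgehog and identity lists, and the 4 most abundant of each other list. To these came, between classes, the 10 (or 5, against S phase) highest and lowest log2 fold changes outside cell cycle lists among genes that passed, moved one way in all 4 libraries and reached 20 CPM. Between LPS and Control they were the 5 smallest unadjusted p in each direction among genes without overlap. Other genes named, such as CDKN2C, DCX, NEUROD2, RNF220 and further list members that passed the test or define a cell type, were chosen after their values were seen. Some genes that the rule names are not reported here.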

Additional observations from a re-analysis of the deposited data

Results flagged for a closer look

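The ratio of mitotic to S-phase nuclei was lower in LPS than in Control within female fetuses (-0.548) and higher within male fetuses (0.287). Without PDGFRA in the exclusion it was -0.0142 within female and 0.0477 within male fetuses. The share of mitotic nuclei without PDGFRA in the exclusion was higher in LPS within female fetuses, by 0.491 percentage points, and lower within male fetuses (-0.631 points). These values were singled out because the sexes went opposite ways, with 1 fetus per sex and group, and the difference between the sexes was not tested.

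Barcodes with 50 or more UMIs but fewer than 500 genes enter no comparison. They held 3 or more of the 7 mitotic genes in 0.0115% of cases in the LPS female library and in 0.00516% in the LPS male library. Both were above the 0.00201 and 0.00266% of the Control libraries. This was 1, 2, 5 and 4 barcodes in the Control female, Control male, LPS female and LPS male libraries.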

How the results depend on the processing

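The share of mitotic nuclei kept its sign under every alternative run, from -0.637 percentage points (of barcodes without the 4 absent genes) to -0.0697 (exclusion without PDGFRA, chosen after seeing the data), and from -0.421 to -0.158 with 1 library left out. The ratio to S-phase nuclei reversed without the Control female library (0.229, range -0.490 to 0.229 over the libraries left out) and without PDGFRA in the exclusion (0.0168), and was -1.74 with barcodes thinned to 1000 UMIs, or -4.95 to 1.48 there with 1 library left out (chosen after seeing the data, 1.48 without the Control female library). Genes lower than in other barcodes numbered 974 in DESeq2 and 929 without the library as replicate block. Against S-phase nuclei, genes lower numbered 22 in DESeq2, 20 without the replicate block and 42 to 77 with 1 library left out, the lowest without the Control female library. Between LPS and Control, 2 genes (MOBP and TTR) were higher with no filter on low counts, and 1 to 6 were higher and 1 to 4 lower with 1 library left out. Each of these leaves a group with 1 fetus, assumed to vary like the other group. The cause of these changes was not tested. Replicate numbers follow accession order and pair nothing. With the sex of the fetus as replicate block, the shares differed by -0.290 points, the ratio by -0.131, and 0 genes passed. Deviations of same-sex libraries correlated at 0.594 over 2 pairs only. Some genes that did not pass the test turned sign. Between LPS and Control, PCDH9 did with no exclusion (-0.00047). Against other barcodes EVC2 (0.24) and HHIP (0.23) did among those without the 4 absent genes, ID3 (0.064), ID1 (0.15) and ZIC5 (0.067) without PDGFRA in the exclusion, ZIC1 (0.047) and ZIC5 (0.22) with library size scaling, PTCH1 (-0.034) with 4 or more of the 7 genes, and ZIC5 in DESeq2 (0.067) and against deep barcodes (0.020). With 1 library left out GLI1 ran from -0.35 to 1.03, HHIP from -0.62 to 0.049, PTCH1 from -0.058 to 0.16 and ZIC5 from -0.11 to 0.058. Of the 50 genes followed against other barcodes, 32 kept their direction and side of the threshold under all alternatives, as did 9 of 10 against S-phase nuclei and 8 of 10 between LPS and Control. Depth limits what is seen of low genes such as ATOH1 and GLI1.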
